A study of Homo sapiens with 6 samples.

Results

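The 6 metallothionein genes MT1E, MT1F, MT1G, MT1M, MT1X and MT2A were examined together with MTF1, the transcription factor that senses zinc, and SLC30A1, the transporter that exports zinc across the plasma membrane. These 8 genes were selected by name from the 58825 genes of the expression table, with earlier results of these data known. They were measured in HK-2, a human tubular cell line that was immortalized from proximal tubule epithelium, by paired-end sequencing of poly(A) RNA. There were 3 Control and 3 OX-LDL samples, OX-LDL being low-density lipoprotein in oxidized form. The OX-LDL samples received it at 25 μg/ml over 48 h, after a period in low-serum medium. Whether the Control samples also had this period is not stated in the sources used here. The Control samples are labelled untreated, and neither their time in culture nor whether the samples of a group came from separate cultures is stated in the labels, so the p-values measure the spread between these samples. All samples come from a single cell line, which limits them as a model of the tubule.

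Metallothioneins are small cytosolic proteins rich in cysteine, and these cysteines bind zinc and copper as well as toxic metals such as cadmium. When free zinc rises, MTF1 binds metal response elements in the promoters of the metallothionein genes and of SLC30A1, so that storage and export of the metal increase together. In the kidney, metallothioneins of the proximal tubule are best known for binding cadmium and for scavenging oxidants.

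The total of the deposited counts ranged from 62561347 to 76797607 per library, with about 4 counts for each read pair. A gene with at most 12 counts in every library, about 3 read pairs each, was therefore taken as below the detection limit. The label of the line was compared with marker genes fixed by name. The renal epithelial markers summed to 200 to 224 FPKM (fragments per kilobase, which corrects for transcript length and library size) in Control and to 230–258 in OX-LDL, carried by EPCAM, KRT8, KRT18, PAX8, CDH6 and GGT1. EPCAM overlapped between the groups (48.6–55.4 and 51.2–56.7 FPKM), KRT8 was higher in OX-LDL (30.9–43.8 and 59.7–68.6) and PAX8 lower (32.6–58.0 and 16.3–24.2). CDH6, a cadherin of the proximal tubule, was higher in OX-LDL without overlap (8.3–12.7 and 25.5–28.8 FPKM). KRT18 was also higher without overlap (35.1–46.8 and 47.9–78.8), and PAX2, at a low level, was lower without overlap (0.302–0.661 and 0.225–0.268). GGT1, a brush border enzyme of the proximal tubule listed in 2 rows, had 3.13–18.2 and 15.8–17.7 FPKM in the first row and 0.0518–22.6 and at most 0.0658 in the other. The proximal tubule genes LRP2, CUBN, AQP1 and ANPEP were near or at 0, with 0 counts for LRP2 in all 6 libraries and at most 46 counts for CUBN. Fibroblast markers summed to 9.44–11.5 FPKM in Control and 8.15–13.1 in OX-LDL and were carried by LUM, with DCN at 0 counts. Endothelial markers summed to at most 0.0957 FPKM. Immune markers summed to 3.13–7.75 FPKM in Control and 9.19–14.1 in OX-LDL, nearly all of it CD68, while PTPRC and CD3E had at most 8 and 4 counts. The part of these shifts in the results that follow was not tested.

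The coding sequences show why these genes are read as a family and where they differ. They were taken from the GENCODE release 29 transcripts on GRCh38 and are printed from start to stop codon with the cysteine codons (TGC or TGT) in capitals, for the 2 most abundant genes and for the 2 with the largest fitted differences between the groups.
MT2A: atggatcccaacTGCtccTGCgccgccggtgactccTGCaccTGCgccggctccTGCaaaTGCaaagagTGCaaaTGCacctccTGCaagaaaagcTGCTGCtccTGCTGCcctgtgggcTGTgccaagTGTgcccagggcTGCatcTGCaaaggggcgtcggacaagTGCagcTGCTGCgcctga
MT1E: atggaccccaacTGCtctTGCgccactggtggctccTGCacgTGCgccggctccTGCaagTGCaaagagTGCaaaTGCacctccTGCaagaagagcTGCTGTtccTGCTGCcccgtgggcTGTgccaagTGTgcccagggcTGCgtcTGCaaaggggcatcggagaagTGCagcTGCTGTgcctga
MT1X: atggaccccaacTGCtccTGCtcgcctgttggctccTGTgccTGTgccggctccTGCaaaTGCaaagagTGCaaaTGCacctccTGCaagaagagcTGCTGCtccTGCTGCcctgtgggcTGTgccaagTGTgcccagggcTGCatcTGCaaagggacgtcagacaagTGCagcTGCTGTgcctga
MT1M: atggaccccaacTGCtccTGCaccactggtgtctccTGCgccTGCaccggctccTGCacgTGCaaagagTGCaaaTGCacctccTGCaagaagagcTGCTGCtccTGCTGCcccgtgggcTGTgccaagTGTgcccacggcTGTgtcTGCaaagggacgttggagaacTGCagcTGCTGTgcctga
Each of these 4 sequences, like that of MT1F, has 186 bases with 61 codons before the stop, of which 20 (32.8%) encode cysteine. MT1G has 62 codons before the stop and also 20 for cysteine. By contrast, 21 of the 753 codons of MTF1 (2.79%) and 18 of the 507 codons of SLC30A1 (3.55%) encode cysteine. Over the 15 pairs of the 6 metallothionein genes, coding identity ranged from 88.7% for MT1X with MT1F to 94.2% for MT2A with MT1G, with a median of 91.4%. The similarity bears on how reads are divided among the genes. No stretch of 150 bases, the length of a read, was shared by the transcripts of MT2A, MT1E, MT1F, MT1G or MT1M with any other gene. For MT1X, 8.58% of such stretches were shared, and these only with AC026461, an RNA gene that overlaps it on the same strand. Stretches of 50 bases were shared more often, from 1.22% of those in MT1F to 18.3% of those in MT1X. Values of single metallothionein genes are therefore uncertain, by an amount that was not estimated.

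The bases upstream of the genes were examined for the sequence that MTF1 recognizes. Promoter windows came from RefSeq (GRCh38.p14), and 4 of the 8 genes had an entry there, MT2A, MT1X, SLC30A1 and MTF1. The core of the metal response element (TGCACNC or TGCGCNC) was searched on both strands, and matches are in capitals in the 250 bases before each start, printed on the strand of the gene, for the most abundant metallothionein, for MT1X and for the zinc exporter.
MT2A: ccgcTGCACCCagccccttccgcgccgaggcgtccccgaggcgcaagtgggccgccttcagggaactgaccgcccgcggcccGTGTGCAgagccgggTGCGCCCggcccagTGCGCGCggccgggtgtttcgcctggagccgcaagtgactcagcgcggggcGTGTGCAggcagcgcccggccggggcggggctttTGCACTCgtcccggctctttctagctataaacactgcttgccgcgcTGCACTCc
MT1X: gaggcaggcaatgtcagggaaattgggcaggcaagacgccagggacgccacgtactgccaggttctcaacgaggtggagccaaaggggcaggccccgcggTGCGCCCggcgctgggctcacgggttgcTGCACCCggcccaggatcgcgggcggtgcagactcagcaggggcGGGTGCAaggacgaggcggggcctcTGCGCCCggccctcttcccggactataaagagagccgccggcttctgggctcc
SLC30A1: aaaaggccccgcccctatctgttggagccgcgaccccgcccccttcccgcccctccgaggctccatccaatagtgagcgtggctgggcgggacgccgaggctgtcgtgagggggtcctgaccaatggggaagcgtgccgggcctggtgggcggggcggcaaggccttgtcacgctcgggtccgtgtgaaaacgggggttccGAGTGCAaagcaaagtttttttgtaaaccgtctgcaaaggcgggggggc
These windows lie at chr16:56608334-56608583 on the plus strand, chr16:56682220-56682469 on the plus strand and chr1:211579162-211579411 on the minus strand. The MT2A window held 7 matches and the MT1X window 4, whereas SLC30A1 had a single match (1) and MTF1 none (0). Among 35116 promoter windows of that length, 24.8% held at least 1 match, 0.37% held at least 4 and 0.12% held at least 5. When the 50 bases after the start were included, the numbers were 8 for MT2A, 4 for MT1X, 2 for SLC30A1 and 0 for MTF1, beside 29.6% of all windows with at least 1. The core of the antioxidant response element (TGACNNNGC, both strands) matched 1 time in each of the MT2A, MT1X and SLC30A1 windows and at least 1 time in 10.9% of all windows, and no match to it overlapped a metal response element. The windows of MT1B, MT1H and MT4, genes of the family that are not members, held 3, 8 and 3 metal response element matches.

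Between Control and OX-LDL, SLC30A1 fell, and no metallothionein gene passed the test. All 5 that could be tested had a positive log2 fold change, beside a median of -0.004 over all genes tested. That of MT1F was -0.12 without OX-LDL replicate 2, the library with the highest level of all 5. The 5 genes were measured in the same libraries, so they are not separate observations. In samples of whole cultures, fewer expressing cells and less RNA per cell cannot be told apart. Genes were tested with edgeR's quasi-likelihood test on the counts, with p-values adjusted over the 19510 genes that had a mean of at least 0.1 FPKM. Of the 8 genes, 7 were tested, and MT1G was not, being below the detection limit. Of these 7 genes, 1 had an adjusted p-value under 0.05, beside 15.3% of all genes tested (7.42% lower and 7.91% higher in OX-LDL), so the number of calls was near that of the table at large. Before adjustment, 3 of the 7 genes (SLC30A1, MT1X and MT1M) had a p-value under 0.05, beside 30.4% of all genes. The FPKM values of Control and OX-LDL did not overlap for 2 of the 7, SLC30A1 below and MT1X above Control, beside 37.2% of all genes (20.5% below and 16.8% above).

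**Figure D1:**
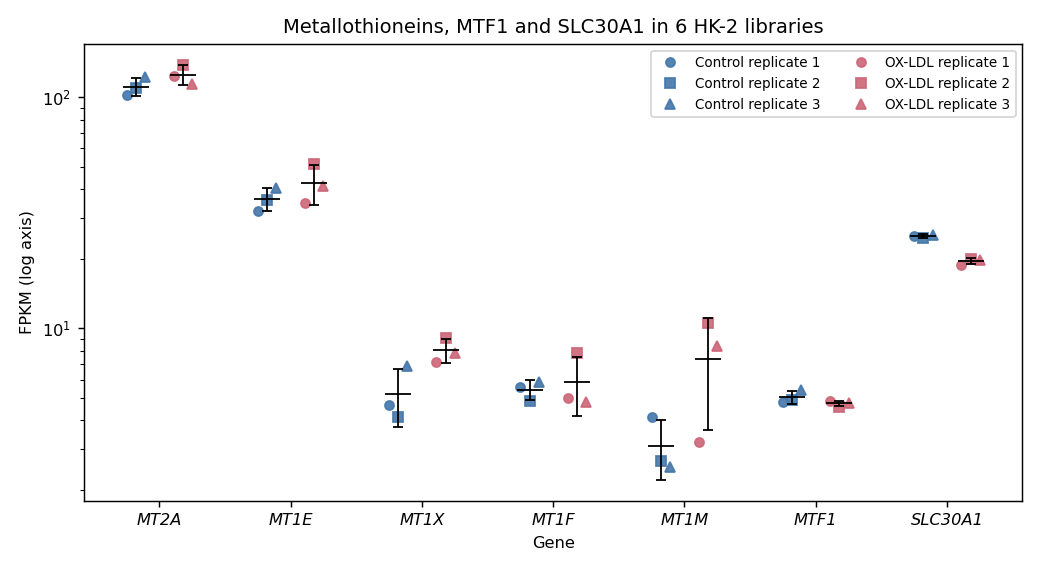
FPKM on a log axis for the 7 detected genes in each of the 6 libraries, with Control in blue and OX-LDL in red, marker shape for the replicate number, and horizontal lines with bars for the mean and SD of 3 libraries. The OX-LDL libraries lie below Control for SLC30A1 (18.8–19.9 against 24.6–25.4) and above Control for MT1X (7.16–9.08 against 4.12–6.88), and the groups overlap for the other 5 genes.

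MTF1 (chr1:37809574-37859592, minus strand) stayed at a moderate level in both groups. Its FPKM was 4.78, 4.91 and 5.39 in Control and 4.85, 4.58 and 4.77 in OX-LDL. The OX-LDL values fell within or just under the range of Control. The log2 fold change was -0.06 (SE 0.08), the quasi-likelihood test of edgeR gave an adjusted p-value of 0.692, and 34.3% of all tested genes had a higher mean FPKM. An antisense gene, AL929472, overlaps MTF1, and whether the counting used strand is not stated in the sources used here.

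MT2A (chr16:56608584-56609497, plus strand), the gene for the metallothionein that is usually most abundant in human tissues, was the highest of the family in every library. Its FPKM was 102, 109 and 122 in Control and 123, 138 and 114 in OX-LDL. The means were 111 ± 10.1 and 125 ± 12 (SD, n = 3), and OX-LDL replicate 3 lay inside the Control range while the other 2 libraries lay above it. Only 1.03% of all tested genes had a higher mean FPKM. The fitted difference was 1.15-fold (log2 fold change 0.20, SE 0.10), with an adjusted p-value by edgeR of 0.231.

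MT1E (chr16:56625475-56627112, plus strand) was the second most abundant metallothionein transcript. Its FPKM was 32.1, 36.0 and 40.4 in Control and 34.9, 51.5 and 41.2 in OX-LDL. OX-LDL replicate 2 stood above the others, while replicate 1 lay below 2 of the Control libraries. The means were 36.2 ± 4.12 and 42.5 ± 8.39 (SD, n = 3). By edgeR, the log2 fold change of 0.27 (SE 0.16) had an adjusted p-value of 0.315.

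The remaining detected genes, MT1X, MT1F and MT1M, were present at a far lower level per length. MT1X (chr16:56682470-56684196, plus strand) encodes a metal-inducible isoform and had 4.65, 4.12 and 6.88 FPKM in Control and 7.16, 9.08 and 7.86 in OX-LDL. All 3 OX-LDL libraries lay above all 3 Control libraries, with Control replicate 3 close to them. The means were 5.22 ± 1.46 and 8.03 ± 0.974 (SD, n = 3), and the log2 fold change was 0.65 (SE 0.22, 1.57-fold) at an adjusted p-value of 0.0918 by edgeR. Without Control replicate 3 the log2 fold change was 0.90 and the adjusted p-value by edgeR 0.0311. With any other library left out, the log2 fold change was 0.50 to 0.74 and the adjusted p-value 0.136 to 0.226. DESeq2 on all 6 libraries gave an adjusted p-value of 0.0234, where DESeq2 called 22.2% of all genes (11.5% higher in OX-LDL). AC026461, the RNA gene on the same strand, overlaps MT1X, and reads from the shared part cannot be told apart.

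MT1M (chr16:56632659-56633981, plus strand) was the least abundant of the detected family members in Control and the most variable in OX-LDL. Its FPKM was 4.14, 2.66 and 2.52 in Control and 3.23, 10.5 and 8.38 in OX-LDL. OX-LDL replicates 2 and 3 lay above every Control library, and replicate 1 lay among them. The counts behind these values were 187, 123 and 106 in Control and 122, 487 and 389 in OX-LDL. With about 4 counts for each read pair, they were the fewest of any tested member. The means were 3.11 ± 0.9 and 7.36 ± 3.74 (SD, n = 3). For MT1M the log2 fold change was 1.27 (SE 0.46, 2.4-fold), larger than for any other member, and edgeR gave it an adjusted p-value of 0.114. Without OX-LDL replicate 1 the log2 fold change was 1.63 with an adjusted p-value by edgeR of 0.0383. With any other library left out, the log2 fold change was 0.93 to 1.54 and the adjusted p-value 0.13 to 0.273. DESeq2 on all libraries gave an adjusted p-value of 0.0249.

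MT1F (chr16:56657731-56660698, plus strand) had 5.58, 4.86 and 5.88 FPKM in Control and 4.98, 7.79 and 4.78 in OX-LDL. Only OX-LDL replicate 2 lay above the Control range, and replicate 3 lay just under it. Its log2 fold change was 0.14 (SE 0.22), at an adjusted p-value by edgeR of 0.726, and it was -0.12 without OX-LDL replicate 2. That library had the highest level of all 5 detected metallothioneins. In Control, the ranges of MT1X and MT1F overlapped, as did those of MT1X and MT1M, and in OX-LDL the ranges of all 3 overlapped, so the order of the 3 genes in OX-LDL was not resolved beyond the spread of the libraries. In Control, MT1F lay above MT1M without overlap.

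MT1G (chr16:56666731-56668065, minus strand), a gene expressed in the proximal tubule of kidney tissue, had 0 counts in the 3 Control libraries and 0, 5 and 5 in OX-LDL. These values are below the detection limit of 12 counts, and no fold change is given. Of the 13 genes of the family, 5 were above the limit in some library. MT1B, MT1H, MT3 and MT4 had 0 counts in all 6 libraries. MT1A, MT1HL1 and MT1L reached at most 4, 3 and 9 counts. A count of 0 allows a level of up to about 3 read pairs per library, and this covers counting error only.

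**Figure D2:**
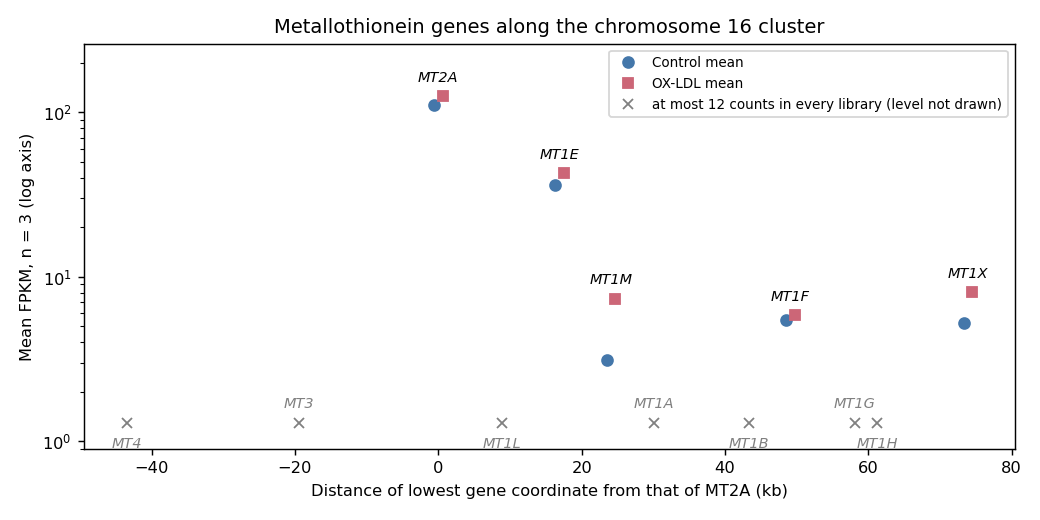
Mean FPKM (log axis, n = 3) of the metallothionein genes against the distance in kb of each gene's lowest coordinate from that of MT2A on chromosome 16, with circles for Control, squares for OX-LDL and crosses for genes with at most 12 counts in every library. The 5 detected genes were interspersed with genes below the detection limit, and MT2A at 0 kb and MT1E at 16.9 kb lay above MT1M at 24.1 kb, MT1F at 49.1 kb and MT1X at 73.9 kb.

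Of the 13 genes, 12 lie within 119 kb of chromosome 16 (chr16:56565049-56684196). Neighbours in this cluster differed in level. MT1E and MT1M were detected, while MT1L on one side of MT1E, at 8.9 kb from MT2A, and MT1A on the other side of MT1M, at 30.1 kb, were not. MT1G and MT1H, at 58.1 and 61.2 kb, lie between the detected genes MT1F and MT1X. MT1G is the only member in the cluster on the minus strand.

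Because the transcripts are similar, the FPKM values of the family were also summed in each library. The sum was 148, 156 and 178 in Control and 173, 217 and 176 in OX-LDL. The groups overlapped, Control replicate 3 lying above OX-LDL replicates 1 and 3. The means were 161 ± 15.2 and 189 ± 24.3 (SD, n = 3), a ratio of 1.17, and the exact two-sided permutation test gave p = 0.3, where the smallest value that 3 against 3 libraries allow is 0.1. Without OX-LDL replicate 2 the ratio was 1.09. On CPM (counts scaled by library size and TMM factor, with no length correction) the ratio was 1.2, with an exact permutation p of 0.2.

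MT2A supplied most of the sum in every library, 68.7%, 69.4% and 68.5% in Control and 70.9%, 63.5% and 64.7% in OX-LDL. MT1E made up between 20.2% and 23.8%. The makeup of the remainder differed between libraries. MT1X contributed 3.13%, 2.63% and 3.87% in Control and 4.14%, 4.19% and 4.45% in OX-LDL, without overlap. An exact two-sided permutation test gave p = 0.1, the smallest possible. The FPKM of MT1X did not overlap either, so its share is not a separate result, and edgeR did not call the gene (adjusted p = 0.0918). MT1M contributed 2.79%, 1.7% and 1.42% in Control and 1.86%, 4.84% and 4.75% in OX-LDL, the first OX-LDL library lying within the Control range. Expressed relative to MT2A, the level of MT1M was 4.07%, 2.45% and 2.07% in Control and 2.63%, 7.62% and 7.35% in OX-LDL.

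**Figure D3:**
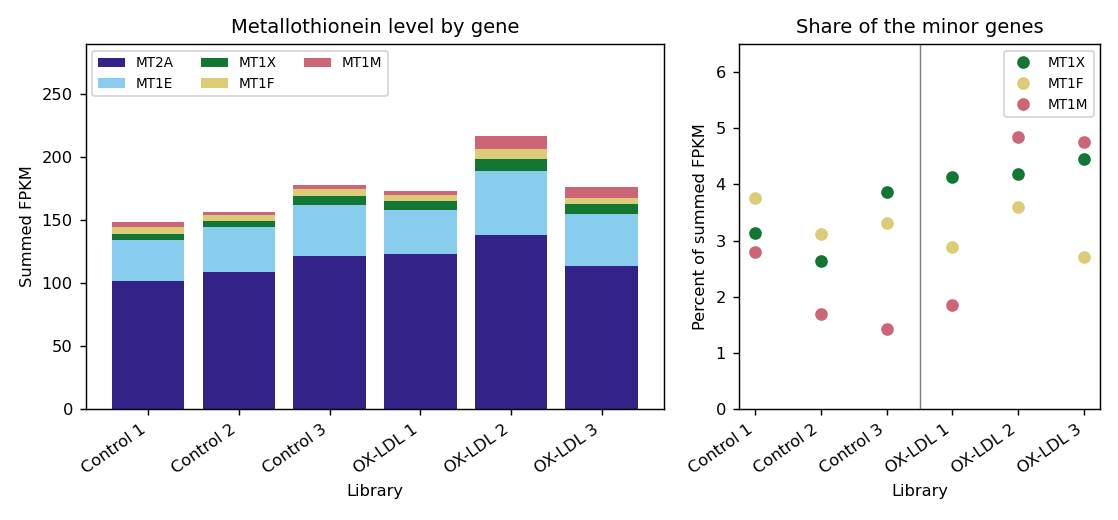
Left, summed FPKM of the 5 detected metallothionein genes in each library, stacked by gene. Right, the percent of that sum from MT1X, MT1F and MT1M, with a vertical line between Control and OX-LDL. OX-LDL replicate 2 has the highest sum (217), and MT1M exceeds 4% of the sum in OX-LDL replicates 2 and 3 but not in replicate 1 (1.86%).

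SLC30A1 (chr1:211571568-211579161, minus strand), the exporter that moves zinc out of the cytosol, was the only member called by edgeR on the group alone. DESeq2 also called MT1X and MT1M. The FPKM of SLC30A1 was 25.2, 24.6 and 25.4 in Control and 18.8, 19.9 and 19.8 in OX-LDL, from 8194 to 13066 counts per library. All 3 OX-LDL libraries lay below all 3 Control libraries, and the spread within each group was small. The means were 25.1 ± 0.448 and 19.5 ± 0.595 (SD, n = 3). This was a change of -20.4% (log2 fold change -0.33, SE 0.07), at an adjusted p-value by edgeR of 0.0203. About 50.1% of all tested genes had a smaller absolute log2 fold change. The direction held with each library left out, with log2 fold changes of -0.35 to -0.30, but the adjusted p-value was under 0.05 only without OX-LDL replicate 2 (0.0286). It was 0.062, 0.0539 and 0.0569 without Control replicates 1, 2 and 3, and 0.0744 and 0.0676 without OX-LDL replicates 1 and 3. In these fits 1161 to 1993 genes were called over the whole table, beside 2943 without OX-LDL replicate 2 and 2991 with every library.

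Storage and export transcripts were set side by side by dividing the FPKM of MT2A by that of SLC30A1 in each library. This ratio was 4.04, 4.42 and 4.79 in Control and 6.51, 6.91 and 5.76 in OX-LDL. The groups did not overlap, with means of 4.42 ± 0.378 and 6.39 ± 0.587 (SD, n = 3). The ratio was chosen after the values of both genes were known, and SLC30A1 alone already separated the groups. The ratio is therefore not a separate result. An exact two-sided permutation test gave p = 0.1, the smallest that 3 against 3 libraries allow.

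No other zinc exporter or vesicle loader of the SLC30 family was called. Of 7 SLC30 genes tested, SLC30A1 was the only 1 called, beside 15.3% of all genes, and the list had a median log2 fold change of 0.01 beside -0.004 over all genes. SLC30A6, a subunit of a zinc loader of the early secretory pathway, had 7.55, 6.74 and 11.6 FPKM in Control and 11.6, 11.5 and 12.7 in OX-LDL. Control replicate 3 lay level with the OX-LDL libraries. The log2 fold change of SLC30A6 was 0.50 (SE 0.20), and edgeR gave an adjusted p-value of 0.146, or 0.0152 if Control replicate 3 was left out. With any other library left out, the adjusted p-value was 0.199 to 0.32. SLC30A7, which loads the same compartment, had means of 3.58 ± 0.156 and 3.93 ± 0.191 FPKM (SD, n = 3; edgeR, adjusted p = 0.211). SLC30A10, a manganese exporter of the plasma membrane, had 0 counts in all libraries.

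Of the SLC39 family, the importers that carry zinc into the cytosol, 11 of 14 genes were tested and 2 were called, both higher in OX-LDL, beside 15.3% of all genes called, with a median log2 fold change of 0.06. SLC39A4, the importer of dietary zinc in the intestine, had 1.1, 1.02 and 0.808 FPKM in Control and 1.92, 1.46 and 1.64 in OX-LDL (log2 fold change 0.80, SE 0.18; edgeR, adjusted p = 0.0281). SLC39A10, an importer of the plasma membrane, had 10.6, 9.32 and 9.55 FPKM in Control and 17.3, 12 and 15.3 in OX-LDL (log2 fold change 0.63, SE 0.14; edgeR, adjusted p = 0.0284). For both genes all OX-LDL libraries lay above all Control libraries. Most fits with a library left out lost these calls. Over the whole table, such fits called 1161 to 2943 genes in place of 2991. The log2 fold changes in them were 0.69 to 0.91 for SLC39A4 and 0.51 to 0.76 for SLC39A10. The adjusted p-value of SLC39A4 ranged from 0.0313 to 0.0914 with a library left out, above 0.05 without any of Control replicates 2 and 3 and OX-LDL replicates 1 and 3. That of SLC39A10 ranged from 0.00905 to 0.101 and was under 0.05 only without OX-LDL replicate 2. SLC39A7, which releases zinc from the endoplasmic reticulum and is the third gene of the list by p-value, had means of 73.4 ± 2.92 and 83.0 ± 4.78 FPKM (SD, n = 3; edgeR, adjusted p = 0.0962), and RXRB overlaps it on the other strand.

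Metallothioneins also bind copper, and 11 genes of copper handling were all tested. Of these, 1 rose and 2 fell, beside 15.3% of all genes called (7.91% higher and 7.42% lower), and the median log2 fold change was 0.06. SOD1, the cytosolic superoxide dismutase that uses copper and zinc, rose from 57.4 ± 3.47 to 80.3 ± 4.66 FPKM (SD, n = 3), at an adjusted p-value by edgeR of 0.00831 that stayed under 0.05 with each library left out. SLC31A1, the copper importer of the plasma membrane, fell from 22.8 ± 0.33 to 17.8 ± 0.26 FPKM (log2 fold change -0.32, SE 0.06; edgeR, adjusted p = 0.0178), and CDC26 overlaps it on the other strand. ATP7A, a copper-exporting ATPase, fell from 3.45 ± 0.371 to 2.31 ± 0.224 FPKM (log2 fold change -0.55, SE 0.12; edgeR, adjusted p = 0.0243), and PGK1 overlaps it on the same strand. The adjusted p-values of SLC31A1 and ATP7A reached 0.0683 and 0.087 when a library was left out and were above 0.05 without any of Control replicates 1 and 2 and OX-LDL replicates 1 and 3.

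**Figure D4:**
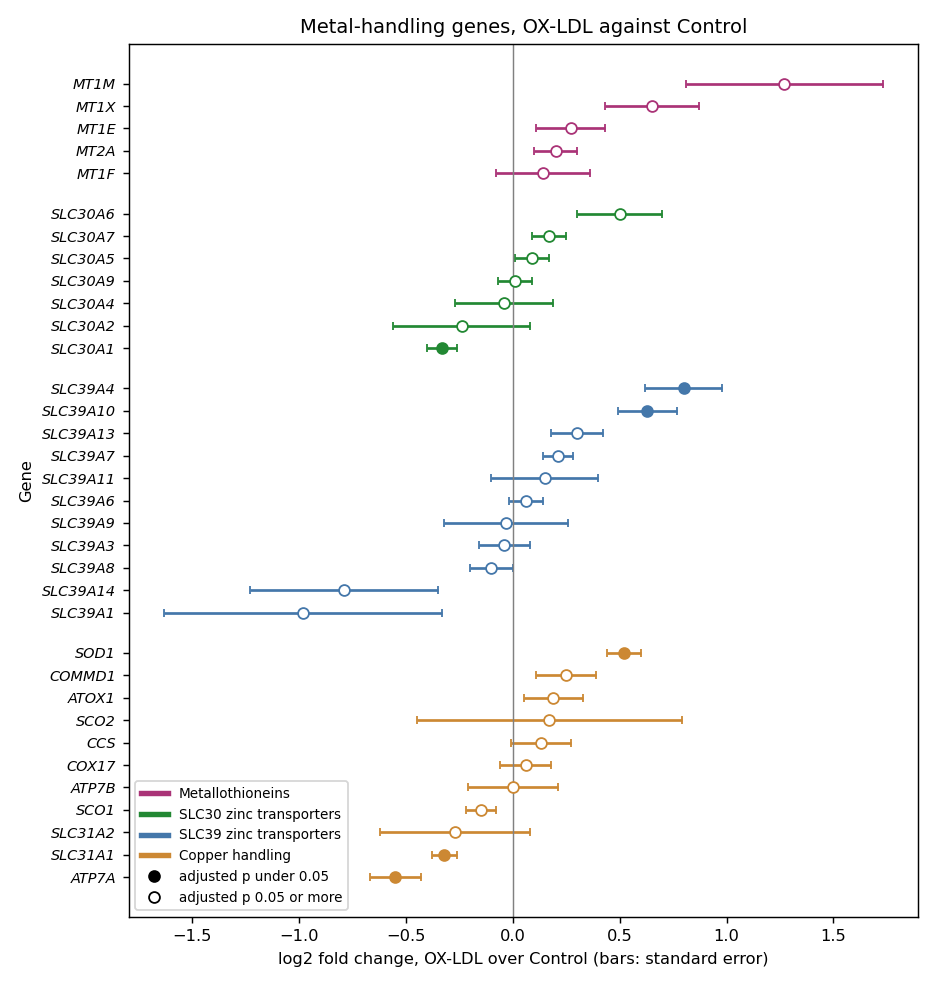
Log2 fold change of OX-LDL over Control with its standard error for the tested genes of 4 metal-handling lists, with filled symbols for an adjusted p-value under 0.05. The 5 metallothioneins lie to the right of 0 with open symbols, and the filled symbols are SLC30A1, SLC31A1 and ATP7A to the left and SLC39A4, SLC39A10 and SOD1 to the right.

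Metallothionein genes also respond to glucocorticoids and, in part, to oxidants, so 2 lists of such target genes were read beside them. Of 8 glucocorticoid-responsive genes tested, 2 rose and 1 fell, beside 15.3% of all genes called. SGK1, a kinase that regulates sodium transport, rose from 4.27 ± 0.816 to 13.6 ± 0.124 FPKM (SD, n = 3; edgeR, adjusted p = 0.00171), and KRT8P42 overlaps it on the same strand. FKBP5, a co-chaperone of the receptor, rose from 4.84 ± 0.496 to 6.61 ± 0.367 (edgeR, adjusted p = 0.0196), and MIR5690 overlaps it on the same strand. TSC22D3, a mediator of anti-inflammatory glucocorticoid effects, fell from 18.2 ± 3.13 to 10.4 ± 0.871 FPKM (edgeR, adjusted p = 0.0154). The list therefore held changes in both directions, and its median log2 fold change was -0.06. With a library left out, the adjusted p-value reached 0.0768 for FKBP5 (above 0.05 without any of Control replicates 1 and 2 and OX-LDL replicates 1 and 3) and 0.0616 for TSC22D3 (above 0.05 without OX-LDL replicate 1 or 3).

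Of 10 NRF2 target genes, which respond to oxidants, 2 rose and 2 fell, beside 15.3% of all genes called, with a median log2 fold change of -0.16. SLC7A11, the cystine importer that feeds glutathione synthesis, fell from 12.3 ± 1.51 to 1.56 ± 0.587 FPKM (SD, n = 3; log2 fold change -2.94, SE 0.30; edgeR, adjusted p = 0.00272), and an antisense RNA, SLC7A11-AS1, overlaps it. TXN, thioredoxin, rose from 165 ± 14.7 to 234 ± 16.3 FPKM (edgeR, adjusted p = 0.0119). NQO1, a quinone reductase, fell from 104 ± 9.41 to 69.9 ± 7.12 FPKM (edgeR, adjusted p = 0.0187), and its adjusted p-value reached 0.0646 with a library left out, above 0.05 without any of Control replicates 2 and 3 and OX-LDL replicates 1 and 3. Those of SLC7A11 and TXN stayed under 0.05 with each library left out.

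The profile of MT2A over the 6 libraries was compared with that of 12254 genes whose mean was 1 FPKM or more by the root mean square distance of log2(FPKM + 0.1), each gene centred on its own mean. The nearest genes were PNMA1 (distance 0.0393), THYN1 (0.0394) and SESTD1 (0.0404), whereas the median distance of all genes was 0.255. Within the family, MT1E lay at 0.129, MT1F at 0.178, MT1X at 0.294 and MT1M at 0.734. MT1E and MT1F were thus nearer to MT2A than the median gene, and MT1X and MT1M farther from it. SLC30A1 lay at 0.286 and MTF1 at 0.164. These distances are a description of 6 libraries, and a gene that varies little lies near any other such gene.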

How the data were processed

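The authors deposited 1 table with a count and an FPKM value for each of 58825 genes in 6 libraries. The deposited counts are whole numbers and were not scaled for library size. The deposited FPKM values were scaled by the authors for transcript length and library size, with each count of 0 listed at 0.0001 FPKM. Per the submitters' processing notes, cutadapt 1.9, HISAT2 2.0.4, StringTie 1.3.4d and the build GRCh38 were used, with no role or order given. GENCODE release 29 gave 81.2% of the shared identifiers the same coordinates. Counts of 4, 8 and 12 were more frequent than their neighbours, which was read as about 4 counts per read pair. The fits used the counts undivided, and the effect of this on the p-values was not tested.

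Groups were taken from the treatment labels. Within groups the chi-square between libraries was 57.5–99.5 per gene, so none was counted as a duplicate. edgeR 4.0.16 (R 4.3.3) was run with TMM factors, glmQLFit and glmQLFTest on the group alone over the 19510 genes whose mean was 0.1 FPKM or more, with Benjamini-Hochberg adjustment, and a gene was called at an adjusted p-value under 0.05. Standard errors are the log2 fold change over the square root of the F statistic. Recovery of known changes was tested on simulated data, with changes larger than those fitted for any member but MT1M. Its outcome is not given here and is not used as support. Alternatives were DESeq2 1.42.0, limma 3.58.1 on log2(FPKM + 0.1) and log2(FPKM + 1), other size factors, other minimum levels, a replicate block and each library left out.

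The 8 genes and the 6 gene lists were chosen by name with earlier results of these data known. Named genes were the 8 members, the rest of the metallothionein family by counts, SLC30A10, the 3 genes of each other list with the smallest p-values and the 3 genes nearest to the MT2A profile. PER1, of the glucocorticoid list, was not analysed here. Not every gene that overlaps a named gene is given. A planned comparison of protein sequences was replaced by one of coding sequences.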

Additional observations from a re-analysis of the deposited data

How the results depend on the processing

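The count of called genes over the whole table was 2991, 4323 with DESeq2, 1636 with a replicate block, and 1161 to 2943 with each library left out. Among the members, the number higher in OX-LDL was 0, but 2 with DESeq2 (MT1X and MT1M) and 0 to 1 with a library left out, and the same held for the metallothionein family list. The number lower was 1 (SLC30A1), 0 with the replicate block (edgeR, adjusted p = 0.0699) and 0 to 1 with a library left out. With the block, 0 SLC30, 1 SLC39 and 1 copper genes were called in place of 1, 2 and 3. With a library left out, these counts were 0 to 1, 0 to 2 and 1 to 3, those of the glucocorticoid list 1 to 3 (main value 3), and those of the NRF2 list 2 to 5 (main value 4). Without Control replicate 3, the SLC30 gene called was SLC30A6. Fewer samples leave such fits fewer degrees of freedom, and no other cause was tested. The log2 fold change of MT1F was -0.12 to 0.26 with a library left out, reversed only without OX-LDL replicate 2. SLC30A1 had 2 metal response element matches in 300 bases and 1 in the 250 before the start. The ratio of summed metallothionein FPKM was 1.09 to 1.24 with a library left out. Same-numbered libraries of the groups did not deviate together (r = -0.041, -0.00313 and 0.0356), so the numbers were not read as pairing the samples. Both limma fits, the other size factors and both other minimum levels changed no call among the members. MT1G and 7 other genes of the family are below what this depth resolves.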

Other observations

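In the SLC39 list, 2 genes with no call differed far more among libraries than the others, and both were noticed after their values had been seen. SLC39A1, a zinc importer of the plasma membrane, had 84.6, 81.6 and 23.2 FPKM in Control and 16, 59.6 and 18.1 in OX-LDL. SLC39A14, which carries iron and manganese as well as zinc, had 13.7, 12.6 and 27.9 FPKM in Control and 6.64, 16.6 and 7.43 in OX-LDL. The libraries of a group thus differed severalfold for SLC39A1, with Control replicate 3 near OX-LDL replicates 1 and 3. The log2 fold changes were -0.98 (SE 0.65) for SLC39A1 and -0.79 (SE 0.44) for SLC39A14, with adjusted p-values of 0.369 and 0.289 in edgeR's quasi-likelihood test. SLC39A1 overlaps MIR6737 and AL358472 on the same strand and CREB3L4 on the other.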
